A study of Mus musculus with 4 samples.

Results

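The difference described here is that between 48 and 24 h after withdrawal of doxycycline from mice carrying melanomas with inducible NRAS, measured as the array of the tumour taken at 48 h minus the array of the tumour taken at 24 h, for every gene. It uses 2 of the 4 arrays of the study, and the arrays on doxycycline and at 72 h are given beside it only to show where the step lies. iNRAS-475 mouse melanoma cells, in which NRAS is switched on by doxycycline, had been injected into the dermis of nude mice that drank water with 2 mg/ml of the drug. Once the tumours measured 200 to 500 mm3, after 6 weeks, the drug was kept for the control and withdrawn for 24, 48 or 72 h for the others, and RNA of a trimmed tumour piece of about 50 mg was put on an Affymetrix array. Each time had 1 array, so the differences below have no replicate error and no test, and animal, tumour piece and hour cannot be told apart. All 4 tumours shared the cell line, the host strain, the site and the earlier drug. The labels name neither the NRAS allele nor the promoter that drives it, the cells are a single line, and nude mice lack mature T cells for want of a thymus.

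NRAS is a small GTPase that, bound to GTP, activates the RAF kinases, which phosphorylate MEK, which in turn phosphorylates ERK. ERK activity is read from a set of genes it induces within minutes to hours: immediate early transcription factors, dual-specificity phosphatases and Sprouty proteins that feed back on the pathway, and growth factor ligands. In melanocytic cells the pathway also feeds into cyclin D1, MYC-driven ribosome production and the supply of amino acids.

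Of 13525 genes kept by level, 74 were 2-fold higher at 48 h than at 24 h (0.547%) and 135 were 2-fold lower (0.998%), where 2-fold means a difference of log2(intensity + 32) of at least 1 in size. The median difference was 0, 6053 genes were higher, 5990 were lower, and 1482 had exactly the same deposited value on both arrays. The central 95% of genes lay between -0.74 and 0.54. Genes 2-fold higher made up 35.4% of the 2-fold differences, or 47.6% after quantile normalization of the arrays, which counted 98 higher and 108 lower. Averaging the probe sets of a gene gave 51 higher and 77 lower. Among the 1353 brightest genes the median difference was -0.13, and 0.01 after quantile normalization, so small negative medians of bright groups are close to what bright genes in general showed. Commonly used reference genes were lower in 9 of 10, with a median of -0.23. Just inside the threshold lay Iars at -1.005 and Sema6d at -1.001 on the lower side and Atf3 at 1.01 and Car3 at 1.01 on the higher side. Just outside lay Cspg4 at -0.999 and Ablim1 at 0.99.

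The step was the only one of the 3 in which 2-fold lower genes outnumbered 2-fold higher ones. From doxycycline to 24 h, 36 genes were 2-fold higher (0.266%) and 9 lower (0.0665%). From 48 to 72 h, 121 were higher (0.895%) and 28 lower (0.207%). The 3 steps share their middle arrays, so these counts are not independent of one another. A gene has more than 1 probe set in many cases: over the 5641 genes with at least 2 above the level limit, the differences given by the brightest and the second brightest were apart by a median of 0.14 and, at the 95th percentile, 0.53. Of the 136 such genes that were 2-fold different, the second probe set had the same direction in 133, with 54 of these also 2-fold.

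**Figure D1:**
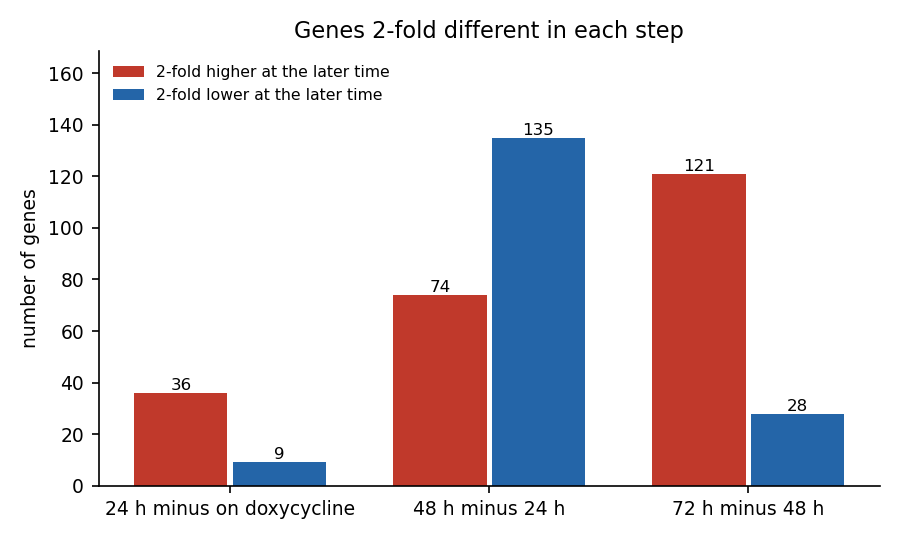
Number of genes 2-fold higher (red) and 2-fold lower (blue) at the later time in each of the 3 steps between neighbouring arrays, with the number of genes on the vertical axis. The step from 24 to 48 h has 74 higher and 135 lower genes, against 36 and 9 in the step before and 121 and 28 in the step after.

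The arrays that the difference does not use lay mostly on either side of it. For 118 of the 135 lower genes (87.4%), the array on doxycycline was nearer to the 24 h array and the 72 h array nearer to the 48 h array. The same held for 61 of the 74 higher genes (82.4%). Over all 12043 genes whose 24 and 48 h values were not equal, it held for 31.2%. Most of those genes differed far less between 24 and 48 h than the 2-fold genes, so the shares are not compared like for like. In another 11 lower genes (8.15%) and 8 higher genes (10.8%) both the array on doxycycline and that at 72 h were nearer to the 48 h array than to the 24 h array. Being nearer does not mean being close: in Fabp4 and Car3 the 72 h array was the farthest from the rest, and Iigp1 was lower on doxycycline than at 48 h. In Acp5, counted among the 61, the values of 328 on doxycycline and 355 at 72 h both lay between 165 at 24 h and 703 at 48 h. The 11 lower genes were the MHC class II genes H2-Ab1, H2-Aa and Cd74, Iigp1, Arg1, Rrm2, Mcm5, Ccl12, Bmp7, Samd5 and Cyrib. The 8 higher genes were Fabp4, Car3, Angptl4, Hp, Serpina3n, Sfrp2, Scara3 and Scarf2. A nearness of this kind compares arrays that the difference itself contains and is a description of levels.

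**Figure D2:**
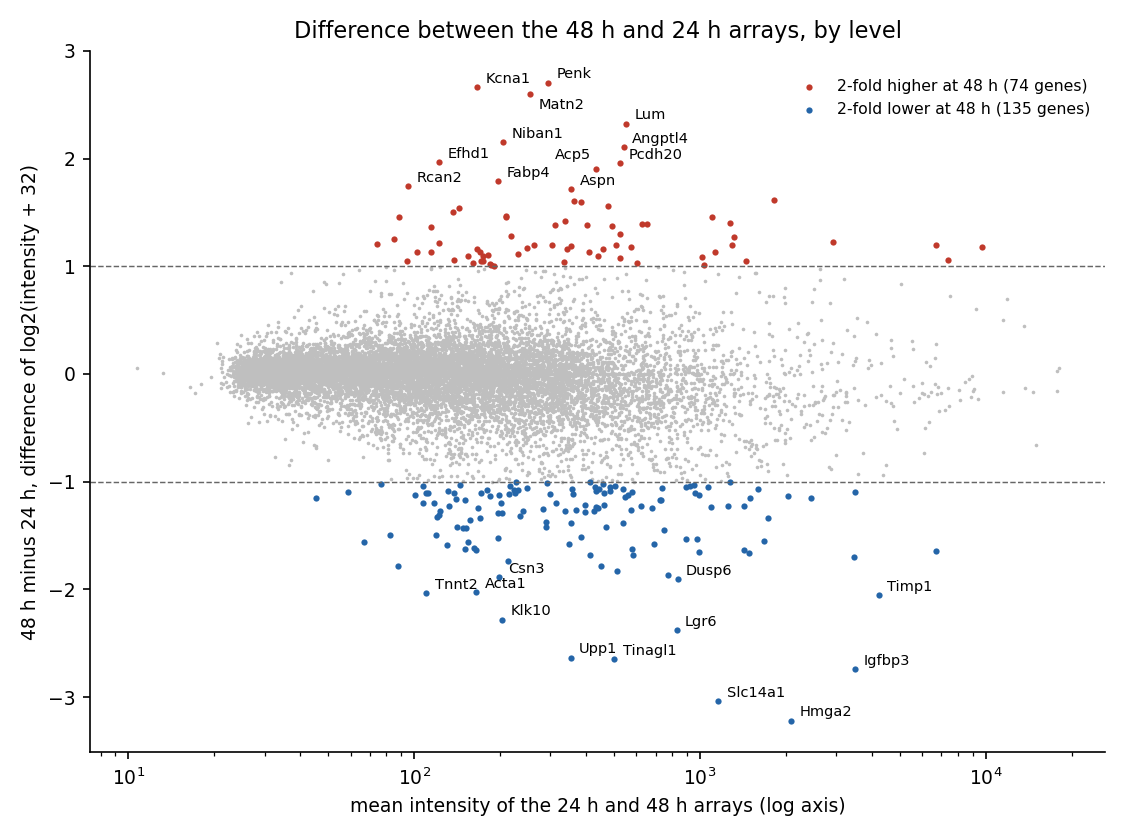
Difference between the 48 h and 24 h arrays in log2(intensity + 32) on the vertical axis against the mean intensity of both arrays on a log axis, 1 point per gene for 13525 genes; dashed lines mark a 2-fold difference. The 12 highest and 12 lowest genes are named, from Penk at 2.70 to Hmga2 at -3.22.

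Intensities are given in the order on doxycycline, 24 h, 48 h and 72 h, and differences as 48 h minus 24 h in log2(intensity + 32). The lowest difference was that of Hmga2, a DNA-bending chromatin protein of embryonic and tumour cells, with 3591, 3799.5, 380.2 and 127.8 and a difference of -3.22. Slc14a1, a urea transporter, measured 2291, 2095, 227 and 61.3, a difference of -3.04. Igfbp3, a secreted binding protein of insulin-like growth factors, measured 6199, 6099, 884 and 243, a difference of -2.74. In all 3 the values on doxycycline and at 24 h were close and the 72 h value was lower again than that at 48 h. The other probe sets of these genes were also lower, from -3.30 to -1.38 for Hmga2, at -2.76 for Slc14a1 and at -3.11 for Igfbp3.

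The next in order were also of varied function. Tinagl1, a matricellular protein, measured 956, 889, 115 and 172, and Upp1, which splits uridine into uracil and ribose phosphate, measured 659.6, 632, 75.1 and 46.4, differences of -2.65 and -2.63. Lgr6, a receptor for R-spondins that strengthens WNT signalling, measured 1030.3, 1412, 246 and 63.0, a difference of -2.38 and of -0.88 by its other probe set. Klk10, a kallikrein-type secreted protease, measured 478, 358, 48.4 and 33.3, a difference of -2.28. Timp1, an inhibitor of matrix metalloproteases and a known ERK-responsive gene, measured 7705, 6833, 1620.4 and 942, a difference of -2.05. Csn3, kappa-casein, measured 281, 331, 66.4 and 65.4, a difference of -1.88. Tnnt2, cardiac troponin T, measured 142, 197, 23.9 and 16.9, a difference of -2.04, but its other probe sets ranged from -1.62 to -0.09. In Acta1, skeletal muscle actin, the levels of 47.5, 284, 45.6 and 1353 did not follow this course: only the 24 and 72 h arrays were high.

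At the top of the order stood genes of varied function. Penk, the precursor of enkephalin peptides, measured 116, 55.1, 535 and 875, a difference of 2.70. Kcna1, a voltage-gated potassium channel of axons, measured 27.9, 21.9, 309.8 and 931, a difference of 2.66 and of 1.14 to 1.88 by its other probe sets. Matn2, a matrix protein found around peripheral nerves among other places, measured 51.5, 49.5, 461 and 1036, a difference of 2.60. All 3 were low on doxycycline and at 24 h and higher again at 72 h than at 48 h. Niban1, a stress-responsive protein, measured 79.3, 55.4, 356 and 494, and Efhd1, a calcium-binding protein of mitochondria, measured 41.5, 31.0, 214 and 389.5, differences of 2.15 and 1.96. Pcdh20, a protocadherin, measured 241, 197, 855 and 1182, and Rcan2, an inhibitor of the phosphatase calcineurin, measured 39.96, 26.5, 164 and 492, differences of 1.95 and 1.74. Their other probe sets gave 0.95 for Pcdh20 and 0.30 for Rcan2, and under the alternatives Rcan2 ranged from 0.92 to 2.32. Acp5, the tartrate-resistant acid phosphatase of osteoclasts and macrophages, measured 328, 164.8, 703 and 355, a difference of 1.90, and was highest at 48 h.

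Genes of ERK output were lower. Of 30 members of the list kept by level, 27 were lower and 3 higher. Of these, 13 were 2-fold lower (0.998% over all genes) and 1 was 2-fold higher (0.547% over all genes). The median difference was -0.87. From doxycycline to 24 h the median of the same genes had been -0.08, and from 48 to 72 h it was -0.27. The summed intensity of the list went from 24136 on doxycycline and 23027 at 24 h to 10671 at 48 h and 6329 at 72 h. Ccnd1 alone contributed 9864, 10149.7, 3222 and 1305 to these sums, so they weigh that gene heavily. In a bulk tumour piece, fewer tumour cells and less RNA of these genes per tumour cell cannot be told apart. The median was -0.85 after quantile normalization.

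The 3 feedback phosphatases of the list were lower. Dusp6, which removes phosphate from ERK in the cytoplasm, measured 1706, 1338, 334 and 156, a difference of -1.91, and Dusp4, a nuclear phosphatase of the same family, measured 1303, 1054, 331 and 86.8, a difference of -1.58. For Dusp5 the values were 314, 301, 179 and 155, a difference of -0.66. Of the Sprouty and Spred proteins, which dampen the pathway at the receptor, Spry4 measured 231, 163, 53.1 and 44.9, a difference of -1.19, although its other probe set differed by -0.12. Spred2 and Spry2 differed by -0.98 and -0.85, but the other probe sets of Spred2 above the level limit lay between -0.32 and -0.01 and that of Spry2 was higher at 0.13. Spry1, Spred1 and Spred3 lay between -0.44 and -0.18. The array on doxycycline and that at 24 h differed less for Dusp6 and Dusp4 than those at 24 and 48 h.

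Among the transcription factors, Fosl1 (FRA1), a partner in the AP-1 complex, measured 244, 206, 74.7 and 68.6, a difference of -1.16 and of -0.57 by its other probe set. The zinc-finger factor Egr2 measured 270.4, 301, 104 and 79.3, a difference of -1.29, and the small MAF factor Maff measured 280.5, 293, 110.0 and 77.5, a difference of -1.19. Etv4, an ETS factor, measured 376, 422, 177 and 144, a difference of -1.12 and of -0.33 by its other probe set, while Etv5 differed by -0.80, Myc by -0.79 and Egr1 by -0.79. Jun was the exception with 963, 939, 1971 and 1456, a difference of 1.05 and of 0.88 by its other probe set: it was higher at 48 and 72 h than on doxycycline. Fos differed by 0.18, with a level of 553 at 48 h that was the highest of the 4 arrays.

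Of the ligands and surface proteins of the list, 5 were lower (Ereg, Hbegf, Lif, Plaur and Epha2) and the ephrin receptor Epha4 was higher at 0.05. Ereg (epiregulin) measured 147, 115, 18.0 and 13.2 and Hbegf 1696, 1467, 487 and 282, both ligands of the EGF receptor family, with differences of -1.56 and -1.53. Plaur, the urokinase receptor, measured 403.0, 266, 103 and 84.6, a difference of -1.14. Of the other early-response genes, Phlda1 measured 825, 698, 241 and 132 and Ier3 1732, 1371, 611 and 201, differences of -1.42 and -1.12. Ccnd1, the D-type cyclin that couples ERK to the cell cycle, measured 9864, 10149.7, 3222 and 1305, a difference of -1.65, and its other probe sets lay between -2.02 and -1.64. All 6 were lower still at 72 h.

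Of the promoters in the RefSeq table that reach from 250 bases before to 50 bases after a transcription start, 6 of the 25 that belong to ERK output genes (24.0%) held the cyclic AMP response element TGACGTC on either strand, against 3.21% of all 32851 promoters and 4.86% of those of genes kept by level. The 25 belong to 18 genes and the 6 to Egr2, Epha2, Maff and Spred2, and promoters of one gene can overlap. The element is a binding sequence of CREB and ATF factors. It was in 10 of 132 promoters of 2-fold lower genes (7.58%) and in none of 68 of 2-fold higher genes, for 94 and 46 genes with a promoter in the table. The promoters of Egr2 (chr10:67537619-67537898, plus strand, 1 of its 5) and Maff (chr15:79347270-79347549, plus strand, 1 of its 3) are shown from 250 bases before to 30 after the start in build GRCm38, because both genes were 2-fold lower and hold the element; capitals mark it.
Egr2: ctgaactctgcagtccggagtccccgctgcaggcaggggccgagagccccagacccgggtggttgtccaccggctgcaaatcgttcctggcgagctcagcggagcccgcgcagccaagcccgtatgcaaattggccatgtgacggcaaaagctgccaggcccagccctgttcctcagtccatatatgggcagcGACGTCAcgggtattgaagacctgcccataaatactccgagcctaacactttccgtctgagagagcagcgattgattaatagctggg
Maff: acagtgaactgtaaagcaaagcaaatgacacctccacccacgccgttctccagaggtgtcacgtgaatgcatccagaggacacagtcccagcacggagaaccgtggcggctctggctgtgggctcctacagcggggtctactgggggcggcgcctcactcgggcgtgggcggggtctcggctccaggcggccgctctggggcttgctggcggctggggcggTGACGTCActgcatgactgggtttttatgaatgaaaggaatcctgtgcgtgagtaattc
In Egr2 the element begins 57 bases before the start, and in Maff, where it reads the same on both strands over 8 bases, 29 before. Other motifs searched in the same 25 promoters had other shares. The ETS core CCGGAAG was in 0 of them, against 15.1% of promoters of genes kept by level. The AP-1 site TGANTCA was in 2 (8%, against 5.61%) and the sequence CCAAT in 12 (48%, against 36.8%). A match of letters is a description and shows no binding.

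The genes that carry the signal itself did not follow their targets. The mouse Nras probe set measured 163, 256, 163 and 163, a difference of -0.56, with its other probe sets between -0.24 and -0.15, and only the 24 h array stood apart. Whether these probe sets read the inducible NRAS is not stated by the sources used here. Of 15 genes of the RAS, RAF, MEK and ERK cascade, 10 were higher and 5 lower, none was 2-fold different, and the median was 0.06. Map2k1, which encodes MEK1, had the highest difference at 0.54, and Rasa1, a GTPase-activating protein that switches RAS off, one of -0.39. The 22 receptor tyrosine kinases had a median of 0.00, with 11 higher, 7 lower, 4 equal and none 2-fold different. Pdgfra and Ddr2 were the lowest at -0.69 and -0.66, but the second probe set of each differed by 0.01 and -0.03.

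**Figure D3:**
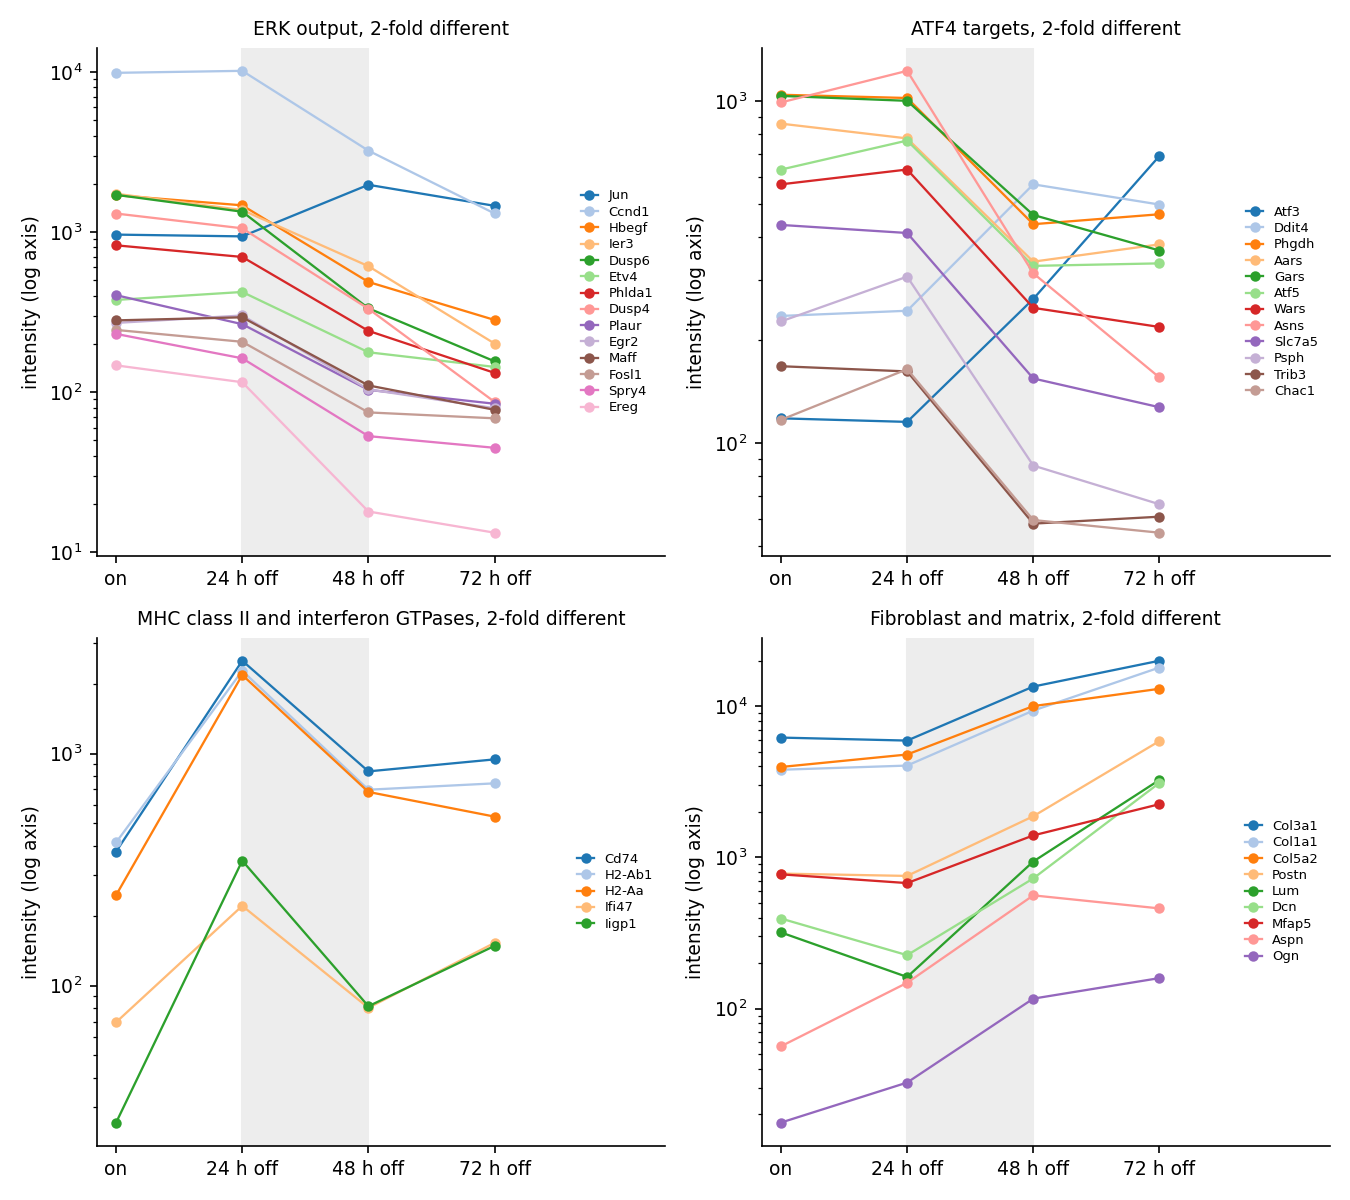
Intensity on a log axis on the array on doxycycline and at 24, 48 and 72 h off, for the members of 4 gene groups that were 2-fold different between 24 and 48 h, the interval shaded grey; lines join arrays of different tumours. The ERK output genes (Jun excepted) and ATF4 target genes (Atf3 and Ddit4 excepted) are lower at 48 h than at 24 h, a larger difference in each than that between doxycycline and 24 h, which reached -0.55 in Plaur and 0.40 in Chac1, MHC class II and interferon GTPase genes are highest at 24 h, and matrix genes are higher at 48 h.

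Most genes of the amino acid response were lower as well. ATF4 is a transcription factor whose translation is favoured when amino acids are short or the endoplasmic reticulum is under stress, and its targets build and import amino acids and charge transfer RNAs. Of 29 genes kept, 26 were lower, 2 higher and 1 equal. Of these, 10 were 2-fold lower (0.998% over all genes) and 2 were 2-fold higher (0.547% over all genes). The median was -0.87, and -0.82 after quantile normalization. Their median was -0.03 in the step before and 0.00 in the step after. The summed intensity of the list went from 15401 on doxycycline and 15580 at 24 h to 8360 at 48 h and 8438 at 72 h. The sums thus differed mainly between the 24 and 48 h arrays, which are of different tumours. Single members did not all stay level from 48 to 72 h: Asns went from 314 to 156 and Atf3 from 264 to 692.

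By role, the enzymes of serine, glycine and asparagine synthesis were among the lowest. Asns, asparagine synthetase, measured 993, 1228, 314 and 156, a difference of -1.87 and of -2.29 by its other probe set. Phgdh, the first enzyme of serine synthesis, measured 1046, 1023, 437 and 467, and Psph, the last, 227, 307, 86.0 and 66.2, differences of -1.17 and -1.52. Psat1, which acts between them, differed by -0.99, and the folate enzymes Shmt2 and Mthfd2 by -0.89 and -0.83. Slc7a5, the light chain of the large neutral amino acid carrier, measured 435, 412, 155 and 127, a difference of -1.25, while its heavy chain Slc3a2 differed by -0.65 and the cationic carrier Slc7a1 by -0.99. All 9 of these genes were lower, 4 of them 2-fold.

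The regulators of the response did not all share this direction. Atf4 itself measured 3660.2, 3674, 1999.8 and 1919.5, a difference of -0.87, with other probe sets from -1.24 to 0.00. Atf5 measured 632, 768, 330.1 and 336, and the pseudokinase Trib3, an inhibitor that ATF4 induces, 168, 162, 58.1 and 60.9, differences of -1.14 and -1.11. Chac1, which degrades glutathione, measured 117, 164.5, 59.6 and 54.7, a difference of -1.10, and Ddit3 (CHOP) differed by -0.87. Atf3, a stress-induced factor of the same family, measured 118, 115, 264 and 692, a difference of 1.01, and Ddit4 (REDD1), an inhibitor of mTORC1, measured 236, 244, 572 and 499, a difference of 1.13. These 2 higher genes stand opposite to 26 lower ones.

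Transfer RNA synthetases, which attach amino acids to their transfer RNAs, were looked at as a family after the values of Aars, Gars and Wars had been seen. By the brightest probe set all 19 cytosolic enzymes measured were lower and 9 were 2-fold lower, against 0.998% over all genes. Their median was -0.98, and -0.86 after quantile normalization, where all genes had a median of 0. The 9 were Farsb at -1.33, Lars at -1.27, Wars at -1.24, Aars at -1.13, Tars at -1.06, Gars at -1.06, Nars at -1.05, Rars at -1.01 and Iars at -1.005. Lars, for leucine, measured 370.4, 489.6, 185 and 203, and Gars, for glycine, measured 1038, 1004, 465 and 366. Qars, for glutamine, differed by -0.11, the smallest difference in size, and Farsa, the partner subunit of Farsb, by -0.28. Other probe sets above the level limit gave -1.56 to -0.08 for Farsb and -1.08 to -0.18 for Wars. The value was -0.77 for Nars and -0.58 for Iars. That of Aars was again 2-fold lower, and Lars, Tars, Gars and Rars had none. Outside the 9, those of Eprs, Hars and Sars were lower. Those of Cars and Farsa were higher, at 0.06 and at 0.01 to 0.04, and those of Qars ran from -0.07 to 0.10. The 14 mitochondrial synthetases kept by level had a median of -0.01, 3 higher, 8 lower and 3 equal, and none was 2-fold different. Their intensities at 48 h ran from 24.6 for Yars2 to 142 for Rars2, and the pseudocount shrinks differences at such levels. In the steps before and after, the cytosolic enzymes had medians of 0.04 and -0.04. Xpot, which exports transfer RNAs from the nucleus, measured 528, 625, 292 and 355, a difference of -1.02.

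The amino acid response element, searched as TGATGNAA on either strand, was in 8 of 28 promoters of the list (28.6%), against 3.97% of all promoters and 2.43% of those of genes kept. It was in 9 of 132 promoters of 2-fold lower genes (6.82%) and 4 of 68 of 2-fold higher genes (5.88%). Among cytosolic synthetases it was in 5 of 12 (Aars, Gars, Iars, Tars and Yars), and in none of 13 promoters of mitochondrial ones. The list was built from known targets of the factor that binds this element, so its share is not independent of the list. The promoters of 5 lower genes and of Atf3, which was higher, are shown in GRCm38 from 250 bases before to 30 after the start, as examples of the element in genes that differed either way. Capitals mark the element, on whichever strand it lies. Asns lies at chr6:7693180-7693459 (minus strand), Aars at chr8:111033592-111033871 (plus), Chac1 at chr2:119350992-119351271 (plus), Trib3 at chr2:152344031-152344310 (minus), Gars at chr6:55037751-55038030 (plus) and Atf3 at chr1:191183304-191183583 (minus).
Asns: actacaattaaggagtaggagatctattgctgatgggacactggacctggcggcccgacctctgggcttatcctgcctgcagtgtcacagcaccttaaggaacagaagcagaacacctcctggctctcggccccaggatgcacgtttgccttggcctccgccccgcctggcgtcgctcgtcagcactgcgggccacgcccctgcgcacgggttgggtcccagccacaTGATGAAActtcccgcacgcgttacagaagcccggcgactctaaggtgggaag
Aars: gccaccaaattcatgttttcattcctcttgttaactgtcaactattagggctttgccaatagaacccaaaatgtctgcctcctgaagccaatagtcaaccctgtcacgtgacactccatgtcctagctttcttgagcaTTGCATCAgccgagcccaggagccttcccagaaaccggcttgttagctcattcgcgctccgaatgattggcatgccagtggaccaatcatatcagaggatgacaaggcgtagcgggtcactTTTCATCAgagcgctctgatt
Chac1: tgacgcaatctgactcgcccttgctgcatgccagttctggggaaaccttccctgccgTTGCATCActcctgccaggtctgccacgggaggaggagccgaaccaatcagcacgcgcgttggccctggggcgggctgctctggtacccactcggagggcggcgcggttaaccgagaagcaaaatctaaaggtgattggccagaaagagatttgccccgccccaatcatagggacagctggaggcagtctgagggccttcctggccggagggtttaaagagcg
Trib3: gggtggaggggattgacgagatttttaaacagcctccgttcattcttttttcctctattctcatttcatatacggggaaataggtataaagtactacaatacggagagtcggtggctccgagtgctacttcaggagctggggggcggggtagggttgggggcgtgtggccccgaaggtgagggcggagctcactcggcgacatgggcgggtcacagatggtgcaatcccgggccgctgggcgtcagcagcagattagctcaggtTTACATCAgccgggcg
Gars: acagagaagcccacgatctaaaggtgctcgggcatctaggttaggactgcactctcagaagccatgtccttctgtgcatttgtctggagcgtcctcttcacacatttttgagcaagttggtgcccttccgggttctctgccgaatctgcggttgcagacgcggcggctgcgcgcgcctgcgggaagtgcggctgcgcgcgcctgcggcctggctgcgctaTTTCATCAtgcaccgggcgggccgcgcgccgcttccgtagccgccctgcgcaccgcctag
Atf3: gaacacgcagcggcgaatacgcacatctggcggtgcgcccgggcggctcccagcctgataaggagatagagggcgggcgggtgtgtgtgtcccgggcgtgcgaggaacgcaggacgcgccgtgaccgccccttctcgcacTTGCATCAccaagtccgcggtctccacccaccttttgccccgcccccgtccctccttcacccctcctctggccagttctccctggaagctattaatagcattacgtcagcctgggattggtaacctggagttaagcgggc
The element begins 23 bases before the start in Asns, 30 before in Gars, 110 before in Atf3 and 193 before in Chac1. In Aars 1 copy begins 112 bases before the start and another at base 10 of the transcript, and in Trib3 it begins at base 15. Atf3 holds the element in the same form, TTGCATCA, as Aars and Chac1, while its level differed in the opposite direction.

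Chaperones of the unfolded protein response, which fold secreted and membrane proteins in the endoplasmic reticulum, were lower in 14 of 15, with a median of -0.46, and of -0.32 after quantile normalization. Hspa5 (BiP), the main chaperone there, measured 3003, 2811, 1264 and 1707, a difference of -1.13, but its other probe sets ranged from -1.08 to 0.06. Pdia6, a disulfide isomerase, measured 1372, 1547, 638 and 798, a difference of -1.24 and of -0.14 by its other probe set. Hsp90b1 differed by -0.81 and Hyou1 by -0.91, where the other probe set of Hyou1 differed by 0.05. Unlike ERK output, both Hspa5 and Pdia6 were higher at 72 h than at 48 h. The CCAAT box, which NF-Y binds and which forms part of the stress element of these genes, was in 12 of 13 of their promoters (92.3%), against 37.4% of all promoters. As the box is part of an element of these genes, its share is not independent of the list. Among other lists the share ran from 11.1% for complement to 81.8% for mitosis and 84.2% for cholesterol synthesis. The box was in 29.5% of promoters of 2-fold lower genes and 32.4% of those of 2-fold higher genes. The promoters of Hspa5 (chr2:34771840-34772119, plus strand) and Pdia6 (chr12:17266339-17266618, plus strand) show it in capitals, as CCAAT or, on the other strand, ATTGG.
Hspa5: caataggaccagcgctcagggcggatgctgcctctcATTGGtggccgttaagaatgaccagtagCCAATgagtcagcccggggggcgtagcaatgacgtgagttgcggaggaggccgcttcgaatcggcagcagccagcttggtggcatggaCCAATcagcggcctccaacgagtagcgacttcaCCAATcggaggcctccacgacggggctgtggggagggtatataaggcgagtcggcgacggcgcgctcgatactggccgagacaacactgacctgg
Pdia6: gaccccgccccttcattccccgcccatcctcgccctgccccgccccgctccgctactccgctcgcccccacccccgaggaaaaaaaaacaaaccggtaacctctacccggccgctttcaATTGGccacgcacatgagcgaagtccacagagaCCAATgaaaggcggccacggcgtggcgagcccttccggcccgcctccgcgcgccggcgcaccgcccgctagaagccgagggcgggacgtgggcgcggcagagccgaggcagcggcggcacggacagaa
In Hspa5 there are 4 copies, which begin 214, 186, 98 and 65 bases before the start, and in Pdia6 there are 2, at 131 and 98.

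Of 27 genes of ribosome biogenesis and MYC response kept by level, all 27 had lower intensities at 48 h, 2 of them 2-fold (0.998% over all genes). The median was -0.37, and -0.36 after quantile normalization. Fbl, the fibrillarin that methylates ribosomal RNA, measured 599, 689, 318 and 216, and its partner Nop56 287, 303, 131 and 202, differences of -1.04 and -1.04, or -0.57 by the other probe set of Nop56. Ncl, nucleolin, measured 1524, 2049, 1164 and 1000.0, and Odc1, the first enzyme of polyamine synthesis, 479, 454, 238 and 329, differences of -0.80 and -0.85, with other probe sets as small as -0.16 for Ncl and -0.17 for Odc1. The smallest difference was that of Wdr12 at -0.02. The step before had a median of 0.03 and the step after one of 0.00.

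The S phase and mitosis lists had lower members in the majority, and both had a summed intensity that was highest at 24 h. Of 26 genes of S phase, 25 were lower and 1 was equal, with a median of -0.43, but their median from doxycycline to 24 h had been 0.47, so that the 48 h levels were near those on doxycycline. Rrm2, the small subunit of ribonucleotide reductase, measured 64.3, 244, 57.7 and 65.5, and Mcm5, of the replicative helicase, 65.6, 150.03, 51.5 and 60.4, differences of -1.62 and -1.12. Other probe sets gave -1.19 to -0.79 for Rrm2 and -0.56 for Mcm5. Mcm6 and Cdt1, which loads that helicase, differed by -0.90 and -0.82. The 24 h array was the highest of the 4 for all of these. Of 26 genes of G2 and mitosis, 20 were lower, 4 higher and 2 equal, with a median of -0.11 and none 2-fold different. Their median from doxycycline to 24 h had been 0.13, and they summed to 2735, 3227, 2646 and 2596 on the 4 arrays in order. Birc5 (survivin) measured 119, 139, 80.8 and 99.99 and Mki67 135, 234.6, 159 and 159, differences of -0.60 and -0.48.

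Of the genes that govern entry into the cycle, Cdkn2b, an inhibitor of CDK4 and CDK6, was 2-fold lower with 699, 622, 245 and 189, a difference of -1.24. Cdk6 differed by -0.82, and by -0.55 by its other probe set above the level limit. Thus Ccnd1, Cdk6 and Cdkn2b were all lower. Cdk4 was also kept by level, but was not among the 4 greatest differences of the list in size. Cdkn1a (p21) had the same deposited value, 614, at 24 and 48 h. Rbl2 (p130), which holds cells in quiescence, measured 71.5, 61.1, 113 and 104, a difference of 0.64 and of 0.66 by its other probe set. Over 18 genes, 13 were lower, 4 higher and 1 equal, with a median of -0.07.

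The lists of cholesterol and of fatty acid synthesis each held 1 gene that was 2-fold lower. Of 20 genes of cholesterol synthesis, 17 were lower, 2 higher and 1 equal, with a median of -0.26, close to the -0.23 of the commonly used reference genes. Msmo1, a sterol oxidase, measured 263, 257, 82.3 and 50.4, a difference of -1.34, and Hmgcs1, Sqle and Fdft1 differed by -0.99, -0.96 and -0.89. The other probe sets above the level limit lay between -0.64 and -0.16 for Hmgcs1 and between -0.80 and 0.34 for Fdft1, and Sqle had none. Of 12 genes of fatty acid synthesis 6 were higher, 5 lower and 1 equal, with a median of 0.02, and Elovl6, which lengthens palmitate, was 2-fold lower with 159.8, 191, 72.6 and 48.8, while its other probe set above the level limit differed by -0.46. Of 18 genes of glycolysis 14 were lower and 4 higher, with a median of -0.27, and of -0.13 after quantile normalization. Hk1 and Hk2, the hexokinases that commit glucose to the cell, measured 985, 1019, 434 and 333 and 154, 208, 102 and 111, differences of -1.17, or -0.50 by the other probe set of Hk1, and -0.84, and Slc16a1, a lactate carrier, -1.04. Of 23 genes of oxidative phosphorylation 19 were lower, with a median of -0.18, and of -0.07 after quantile normalization, near that of bright genes in general. Cycs, cytochrome c, was the lowest of them at -0.91.

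**Figure D4:**
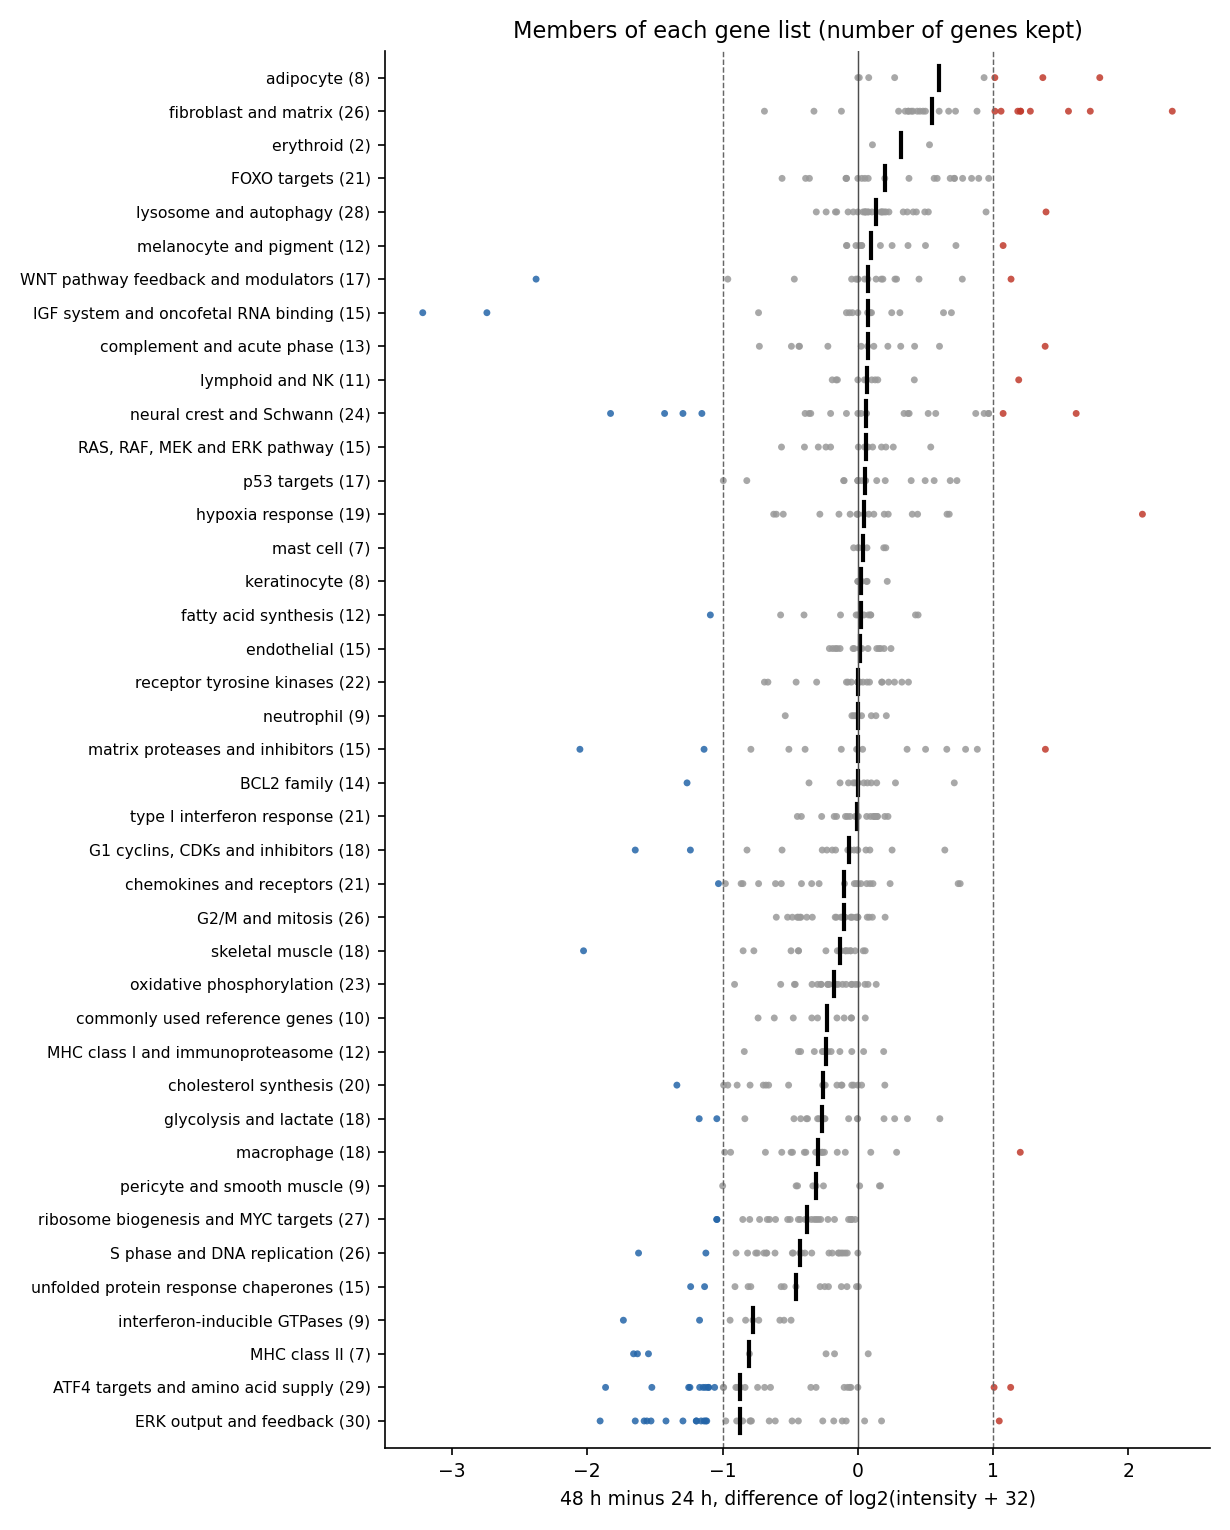
Difference between 48 and 24 h in log2(intensity + 32) for every kept member of the 41 gene lists, 1 point per gene, red or blue where 2-fold higher or lower and grey otherwise; black bars mark list medians and numbers in brackets the genes kept. The ERK output and ATF4 lists have the lowest medians, both -0.87, and the adipocyte and matrix lists the highest, 0.60 (0.10 with no level limit) and 0.55.

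Genes linked to growth arrest and survival showed smaller differences. Of 21 targets of FOXO factors, which are active when AKT signalling is low, 14 were higher, 6 lower and 1 equal, with a median of 0.20 and none 2-fold different. Pik3ip1, a brake on PI3-kinase, measured 103, 157, 337 and 302, Sesn3 126, 156, 318 and 268 and the ubiquitin ligase subunit Fbxo32 62.2, 56.6, 127 and 143, differences of 0.97, 0.89 and 0.84. Txnip, which limits glucose uptake, measured 376, 405, 716 and 1698, a difference of 0.77. All 4 were higher at 48 and 72 h than on the earlier arrays. In the BCL2 family 6 genes were higher, 6 lower and 2 equal, with a median of 0.00. Bcl2l1 (BCL-XL), which protects from apoptosis, measured 439, 535, 204 and 216, a difference of -1.26 with other probe sets from -0.93 to -0.40. Bcl2l11 (BIM), which promotes it and whose protein ERK marks for degradation, measured 367, 543, 909.8 and 1062, a difference of 0.71. The 17 p53 targets had a median of 0.05, with 10 higher, 4 lower and 3 equal, from Plk2 at -0.99 to Trp53inp1 at 0.73. The other probe sets of these 2 genes differed by -0.03 and 0.53. Of 19 hypoxia genes 10 were higher, 7 lower and 2 equal, with a median of 0.05, and Angptl4, which inhibits lipoprotein lipase, stood out with 419.6, 185, 899 and 966, a difference of 2.10.

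Lysosomal and autophagy genes were higher in 21 of 28, lower in 6 and equal in 1, with a median of 0.14, and of 0.26 after quantile normalization. Ctsk, a collagen-cleaving cathepsin, measured 413, 333, 925 and 727, a difference of 1.39. Scarb2, a membrane protein of lysosomes, measured 561, 592, 1172 and 2186, and Psap, a precursor of activators of lipid breakdown, 2753, 2912, 4192 and 5284, differences of 0.95 and 0.52. Both were higher again at 72 h.

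The check of the tissue against melanocyte genes gave a mixed picture on all arrays. Sox10, the master factor of neural crest derived cells, was far above the level limit with 3771, 3613, 4681 and 3844, a difference of 0.37. Of the pigment genes Dct, an enzyme of melanin synthesis, measured 34.7, 25.8, 27.0 and 25.7, just above that limit, and Tyr, Mlana and Tyrp1 did not reach the level limit. Mitf, which drives pigment genes, measured 50.3, 56.5, 93.1 and 115, and Pmel, a melanosome protein, 73.1, 49.8, 103 and 199.7, differences of 0.50 and 0.73. Of the 12 members kept 9 were higher and 3 lower, with a median of 0.10 and 1 2-fold different: S100b measured 362, 327, 724 and 575, a difference of 1.07. Sox10 was thus well measured on every array, and 4 of the 16 listed genes on the array were under the limit.

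Neural crest and Schwann cell genes divided. Of 24 kept, 14 were higher, 9 lower and 1 equal, with a median of 0.06. Of these, 2 were 2-fold higher (0.547% over all genes) and 4 were 2-fold lower (0.998% over all genes). The lower ones were the neurofilaments Nefl, with 1028, 821, 208 and 71.6, and Nefm, with 537, 231, 65.9 and 55.0, the intermediate filament Nes with 3637, 3376, 1501 and 831, and Egr2, differences of -1.83, -1.43, -1.15 and -1.29. The higher ones included Cdh19, a cadherin of Schwann cell precursors, with 691, 878, 2753 and 2834, a difference of 1.61. Ngfr, the low-affinity nerve growth factor receptor, measured 2228, 1858, 3426 and 4198, and the myelin enzyme Cnp 945, 1067, 2066 and 2059, differences of 0.87 and 0.93. The factor Sox2, dim on all arrays, measured 43.1, 47.4, 123 and 101, a difference of 0.97. The list thus held genes that differed either way, and Egr2, a factor of Schwann cells as well as of ERK output, was among the lower ones.

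In the WNT list 11 genes were higher, 5 lower and 1 equal, with a median of 0.07. Beside Lgr6, the transcription factor Lef1 was lower with 76.8, 145, 58.9 and 59.9, a difference of -0.96. The secreted antagonists Dkk3 and Sfrp2 were higher at 0.77 and 1.13. The insulin-like growth factor list, which includes Hmga2 and Igfbp3, had a median of 0.07 over its 15 kept members, with Igfbp4 at -0.73 and Igfbp7 at 0.69, or 0.05 to 0.38 by the other probe sets of Igfbp7.

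Matrix genes of fibroblasts were higher. Of 26 kept, 23 were higher and 3 lower, and 9 were 2-fold higher, against 0.547% over all genes. The median was 0.55, and 0.63 after quantile normalization. The medians of the steps before and after were -0.06 and 0.71. The summed intensity went from 51468 on doxycycline and 52106 at 24 h to 88623 at 48 h and 136864 at 72 h. Lum, lumican, a proteoglycan that spaces collagen fibrils, measured 319, 162, 939 and 3252, and Dcn, decorin, 394, 226, 726 and 3108, differences of 2.32 and 1.56, where the other probe set of Dcn differed by 0.12. Aspn, of the same family, measured 56.4, 148, 561 and 459.9, and Postn, periostin, 781, 754, 1871 and 5879, differences of 1.72 and 1.28. The fibrillar collagens Col1a1 and Col3a1 measured 3797, 4046, 9348 and 18005 and 6197, 5920.0, 13476 and 19970.0, differences of 1.20 and 1.18. Pdgfra, a receptor that marks fibroblasts, was lower at -0.69 by its brightest probe set, against the direction of the matrix genes. Its other probe set above the level limit differed by 0.01.

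Some marker genes of other tissues differed beside the matrix genes. Adipocyte markers were higher in 7 of 8 and equal in 1, with a median of 0.60: the fatty acid carrier Fabp4 measured 203, 70.8, 323 and 1234, Lpl, lipoprotein lipase, 86.9, 50.0, 179.6 and 555, and the hormone Adipoq 64.0, 15.6, 58.9 and 352, differences of 1.79, 1.37 and 0.93. The other probe sets of Fabp4 gave 0.02 to 0.98. The median of the list was 0.10 with no level limit and 1.01 with the limit at the 60th percentile. Their intensities summed to 748, 425, 1014 and 3939 on the 4 arrays in order. Skeletal muscle markers were lower in 16 of 18, with a median of -0.13, and summed to 857, 1182, 737 and 7470, so that the sum was highest at 72 h. Keratinocyte markers summed to 958, 951, 985 and 985 with a median of 0.02, and erythroid markers rested on 2 genes. Of 15 endothelial genes 8 were higher and 7 lower, with a median of 0.02, and of 9 pericyte and smooth muscle genes 6 were lower, with a median of -0.31, Cspg4 lowest at -0.999. The part of fat and muscle in the matrix result was not tested. Whether the RNA of these markers, Cspg4 among them, came from tumour cells or from other cells of the bulk piece was not tested either.

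Proteases and their inhibitors divided, 7 higher, 7 lower and 1 equal over 15 genes with a median of 0.00. Beside Timp1 and Plaur, Mmp9, a gelatinase, was 2-fold higher with 306, 209, 597 and 189, a difference of 1.39, and was highest at 48 h. Timp2, another inhibitor, measured 3033, 2244, 4166 and 4401, a difference of 0.88, and Mmp2, which it regulates, differed by 0.80. Within the inhibitor family, Timp1 was therefore lower and Timp2 and Timp3 higher, Timp3 by 0.66.

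The genes of antigen presentation through MHC class II were lower after a peak at 24 h. Of 7 kept, 6 were lower and 1 higher, and 3 were 2-fold lower, against 0.998% over all genes. The median was -0.80. It was -0.24 with no level limit and -1.55 with the limit at the 60th percentile. H2-Ab1 measured 414, 2272, 698 and 744, H2-Aa 245, 2179.6, 683 and 535 and Cd74, the invariant chain that guides these molecules, 378, 2510.4, 837 and 943, differences of -1.66, -1.63 and -1.55. On all 3 the 24 h array was the highest of the 4 and the 48 h value was above that on doxycycline. The list summed to 1238, 7268, 2425 and 2436 on the 4 arrays in order. Ciita, the master regulator of the class, was dim with 27.0, 34.3, 24.3 and 27.1.

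The interferon-inducible GTPases, which defend cells against intracellular pathogens, were lower in 9 of 9, with a median of -0.78, after a median of 1.39 in the step from doxycycline to 24 h. Iigp1 measured 25.7, 345, 81.5 and 148 and Ifi47 69.5, 221, 80.2 and 153, differences of -1.73, or -1.10 by its other probe set, and -1.17. Irgm2 and Gbp6 differed by -0.94 and -0.83. MHC class I and immunoproteasome genes, induced by interferon as well, had 10 lower and 2 higher of 12, with a median of -0.24, led by the proteasome subunit Psmb8 with 92.1, 305, 156 and 196. Type I interferon response genes differed in no common direction, with 10 higher and 11 lower of 21 and a median of -0.01, and had a median of 0.80 in the step after. Irf7 was the lowest at -0.45 and Ifit1 the highest at 0.22.

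Macrophage markers were lower in 15 of 18, with a median of -0.29, and they summed to 5314, 9243, 7480 and 14551 on the 4 arrays in order. Ctss, a cathepsin that cleaves the invariant chain, measured 508, 1103, 542 and 857, and Ly86 166, 337, 160.2 and 327, differences of -0.98 and -0.94. Csf1r, the growth factor receptor of these cells, differed by -0.38, and Cd68, a lysosomal protein, was 2-fold higher with 166, 172, 436 and 525, against the direction of the list. These markers moved with the MHC class II and GTPase genes at 24 and 48 h, and their part in that result was not tested. Lymphoid markers were higher in 7 of 11, lower in 3 and equal in 1, with a median of 0.07, and Ighm, the heavy chain of IgM, measured 131, 203, 505 and 257, a difference of 1.19 with other probe sets from 0.05 to 0.89. Neutrophil and mast cell markers had medians of 0.00 and 0.03 over 9 and 7 genes.

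Of 21 chemokines and receptors 13 were lower, 7 higher and 1 equal, with a median of -0.10. Ccl6 measured 315, 206, 84.3 and 292, a difference of -1.03, and Ccl8, a monocyte attractant, 861, 2118, 1161 and 1031, a difference of -0.85. Ackr3, a scavenger of CXCL12, differed by -0.98, and Cxcl12 itself by 0.76. Of 13 complement and acute phase genes 8 were higher and 5 lower, with a median of 0.07. Hp, haptoglobin, measured 723, 158, 463 and 742, a difference of 1.38, with its lowest value at 24 h. The 3 chains of C1q, C1qa, C1qb and C1qc, differed by -0.49, -0.44 and -0.43, while C1s1, a protease of the same complex, differed by 0.60.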

How the data were processed

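RNA of 4 tumours was measured on Affymetrix mouse arrays, 1 per group, grouped by the treatment the labels give. The deposited table holds 1 linear intensity per probe set and array, from 6.99 to 19970 with medians of 33.3 to 34.0. Per the submitters' processing notes MAS5 and RMA were used, and neither a version nor the step each served is named; the scaling of the arrays is unknown here. On the 24 and 48 h arrays 6956 of 45037 probe sets (15.4%) had exactly equal values, and such ties shrink differences. Symbols came from the platform annotation: 34945 probe sets had 1 gene, 932 several and 9160 none listed, and only the first kind was used.

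The log2 of the deposited intensity plus 32 was computed, with no further normalization. The pseudocount is near the median intensity and shrinks differences of dim genes. A gene was read from its brightest probe set on average. Of 18193 genes, 13525 passed the level limit, the 40th percentile of the mean over probe sets, or about 24.8 in intensity. A difference of at least 1 was counted as 2-fold, with no p-value. The computation was tested on simulated data.

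The step, the 41 gene lists (813 genes, 740 with a probe set of their own, 662 kept), the motifs and the alternatives were chosen with earlier results of these data known. Named were Nras, the 12 highest and 12 lowest genes, the 2-fold different ERK output genes, 4 of each other list and the pigment genes; other genes named were chosen after their values had been seen. Promoters are RefSeq's in build GRCm38, 32851 of 27025 genes, matched by symbol for 10820 kept genes (10775 match by gene identifier); 8 motifs were searched. The 10 alternatives changed the scaling (quantile, median), the level limit (none, 60th percentile), the probe set (a mean of all; a choice by the 24 and 48 h arrays alone; no _x_at or _s_at), the pseudocount (8, and 4 times 32) and the tied genes (removed). Python 3.11.15, pandas 2.3.3, NumPy 2.4.6 and matplotlib 3.10.9 were used. Precision is limited by having 1 array a group.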

Additional observations from a re-analysis of the deposited data

How the results depend on the processing

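Against 74 higher and 135 lower genes, the mean over probe sets gave 51 and 77, a pseudocount 4 times as large gave 34 and 58, and a pseudocount of 8 gave 101 and 194. The other counts were within 1.5 times the first, and the 34 and 58 were all among the 74 and 135. Of 410 list medians under 10 alternatives, 408 moved by less than 0.58 in log2 and did not change sign from a size of 0.2 or more. Relative to their size more moved: of 16 medians of at least 0.2 in size, 9 moved by over 1.5 times under some alternative. The MHC class II median, -0.80, was -1.55 with the level filter at the 60th percentile, which keeps fewer members, and -0.24 with no filter, and the adipocyte median, 0.60, ran from 0.10 to 1.01. The other 7 were the MHC class I, S phase, reference gene, erythroid, glycolysis, pericyte and ribosome biogenesis lists. The erythroid median, 0.32 over 2 genes, was -0.012 with no level filter, which adds dim members. Medians at or near 0 (BCL2 family, endothelial, fatty acid, hypoxia, neutrophil, protease, receptor tyrosine kinase and type I interferon lists) took either sign or 0. Of 1686 values of 190 named genes, 33 moved by more than 0.58 and 1 of at least 0.2 in size reversed: Hyou1 was 0.048 without the _x_at and _s_at probe sets, where another probe set is read. Rab38, Epcam, Mc1r and Trpm1, with smaller differences, took either sign. The cause of the other moves was not tested. No paired analysis was possible because each group had 1 array. Dim genes are limited by the pseudocount and the ties, and a single array a side gives no error for any value.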

Other observations

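Some families outside the lists above were looked at after values of single members had been seen. Of the ID proteins, which block basic helix-loop-helix factors and respond to bone morphogenetic proteins, Id1 measured 805, 717, 185 and 167 on doxycycline and at 24, 48 and 72 h, a difference from 24 to 48 h of -1.78 in log2(intensity + 32). Id4 differed by -0.78, Id2 by -0.08 and Id3 by 0.24, so the family did not share a direction. The ligands Bmp7 and Bmp2 measured 286, 527, 182 and 139 and 68.6, 74.8, 16.1 and 13.0, differences of -1.38 and -1.15, and Smad7, an inhibitor of the same signal, differed by -0.75.

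Of 22 integrin subunits kept by level, which form the matrix receptors of the cell surface, 18 were lower, 3 higher and 1 equal, 3 were 2-fold lower, and the median was -0.26, against a median of 0 over all 13525 genes, of which 0.998% were 2-fold lower. Itga8 measured 111, 212, 48.8 and 27.0, Itga7 321, 353, 127.6 and 158 and Itga3 511, 495, 219.6 and 172, differences of -1.59, -1.27 and -1.07. Other probe sets above the level limit gave -0.97 for Itga8 and -1.22 to -0.36 for Itga3, and Itga7 had none. Itga6 and the common chain Itgb1 differed by -0.47 and -0.42. Of 9 kallikreins kept (Klk1 and Klk6 to Klk13) 6 were lower, 2 higher and 1 equal, with a median of -0.07, and Klk10 and Klk8 were 2-fold lower. Klk8 measured 1389, 1348, 446 and 238, a difference of -1.53, and Klk6 just missed 2-fold. Of 16 Kruppel-like factors 8 were higher, 6 lower and 2 equal, with a median of 0.01, and 3 were 2-fold lower: Klf4, Klf5 and Klf10 differed by -1.50, -1.35 and -1.22, and Klf6 by 0.04. The other probe sets of Klf4 and Klf5 above the level limit differed by only -0.18 and -0.33, and Klf10 had none.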
